A study of Mus musculus with 112 samples.

Results

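Epididymal white adipose tissue (WAT) of control-fed C57BL/6J mice (strain label C57BL6/J) was compared with that of control-fed DBA/2J mice, the parental strains of the BXD recombinant inbred lines. Arrays were chosen by their strain and diet labels alone, which gave 16 of the 112 arrays of the series, 8 per strain, each from 1 mouse. All 16 mice were males from Jackson Laboratory, were housed singly, received equal weekly allotments of a purified control diet, and were killed at 22 weeks of age after an overnight fast. No drug or transgene is named for either strain. The series holds 7 strains on control diet and on calorie restriction (CR). The 16 CR mice of C57BL/6J and DBA/2J, also 22 weeks old, were used here as a second set of animals, but the strains did not keep equal rations on CR, so those mice were not on equal food.

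Epididymal WAT stores triacylglycerol in adipocytes, which also make fatty acids from glucose and secrete adipokines, and it holds macrophages, lymphocytes, blood vessels and fibroblasts between them. C57BL/6J is the strain of the mouse reference genome, and array probes follow that sequence. DBA/2J carries another haplotype of the major histocompatibility complex (MHC) on chromosome 17 and known loss-of-function alleles such as those of Gpnmb and Klrd1. The BXD lines carry mosaics of both parental genomes, so a gene that differs between the parents is one whose level can segregate among the lines. For a gene that was lower in DBA/2J, less RNA and weaker binding of a DBA/2J sequence variant to the probes cannot be told apart, since no DBA/2J sequence was analysed here. Likewise, in whole tissue, fewer cells of a type and less RNA per cell cannot be told apart.

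All 16 arrays had adipocyte RNA at similar levels, with a mean over 7 adipocyte markers of 12.50 to 12.70 in C57BL/6J and 12.41 to 12.70 in DBA/2J on the log2 scale, where 1 unit is a 2-fold difference. DBA/2J replicates 3 and 4 stood apart from the other mice. The mean of 15 genes typical of the epididymis, the organ that this fat pad adjoins, was 8.07 and 9.66 in them, 5.23 to 6.15 in the other DBA/2J mice and 5.03 to 5.42 in C57BL/6J. The first principal component, with 37.8% of the variance, placed these arrays at 57.1 and 54.7, DBA/2J replicate 8 at 30.1 and all C57BL/6J arrays between -22.0 and -16.5. Counts below rest on all 16 arrays unless they are said to leave out replicates 3 and 4, and the main gene groups are given both ways.

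Of 19938 genes, 3528 (17.7%) differed between the strains on control diet at a Benjamini-Hochberg adjusted p under 0.05 in limma, and genes past that threshold are called so below. Of these, 1705 (8.55%) were higher in C57BL/6J and 1823 (9.14%) higher in DBA/2J. Differences of at least 1 on the log2 scale were found for 211 called genes, 78 higher in C57BL/6J and 133 higher in DBA/2J. The 8 arrays of each strain did not overlap for 847 genes (4.25%), of which 845 were called. Without DBA/2J replicates 3 and 4, 2449 genes (12.3%) were called, 1130 (5.67%) higher in C57BL/6J and 1319 (6.62%) higher in DBA/2J, and 2305 genes were called in both fits with the same sign. The median difference over all genes was 0.03, so directions below are close to directions relative to the array as a whole. Differences are given throughout as C57BL/6J minus DBA/2J on the log2 scale, with the standard error (SE), and negative values mean a higher signal in DBA/2J.

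The largest differences in size were those of H2-Ea and of a Kcnma1 probe set, both higher in DBA/2J. H2-Ea, the alpha chain of the MHC class II E molecule, which mice of the b haplotype such as C57BL/6J do not express, ran from 5.28 to 6.27 (median 5.80) in C57BL/6J and from 11.90 to 12.29 (median 12.16) in DBA/2J. The difference was -6.31 ± 0.14 (adjusted p = 2.9e-15), with a wide gap between the groups. A probe set named for Kcnma1, the pore-forming subunit of the large-conductance calcium-activated potassium channel, ran from 4.37 to 4.98 (median 4.60) in C57BL/6J and from 9.68 to 10.78 (median 10.06) in DBA/2J. Its difference was -5.46 ± 0.13 (adjusted p = 7.6e-15), while a second Kcnma1 probe set differed by only -0.38, with means of 6.41 and 6.79. The size of the Kcnma1 difference therefore belongs to that probe set and not to both. Mcpt2, a mast cell protease of the chymase type, was at 3.40 to 4.39 (median 3.81) in C57BL/6J and at 7.04 to 9.56 (median 8.38) in DBA/2J, a difference of -4.41 ± 0.30 (adjusted p = 2.1e-08). The highest Mcpt2 values, 9.56 and 9.20, were those of DBA/2J replicates 3 and 4. Other mast cell markers did not share the Mcpt2 difference. Of 9 listed and measured, Tpsb2 (a tryptase) was higher in C57BL/6J by 0.51 and Kit (the stem cell factor receptor) higher in DBA/2J, at -0.22. Rnase2a, a ribonuclease of the eosinophil-associated family, was at 4.69 to 7.86 (median 6.59) in C57BL/6J and 9.93 to 10.96 (median 10.65) in DBA/2J, at -4.23 ± 0.37 (adjusted p = 4.5e-07). C57BL/6J mice spread over a wider range than DBA/2J mice in Rnase2a.

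Tmem45b, a transmembrane protein gene, had the largest difference towards C57BL/6J. Its signal was 11.80 to 12.54 (median 12.39) in C57BL/6J and 6.44 to 8.11 (median 6.96) in DBA/2J, a difference of 5.34 ± 0.19 (adjusted p = 2.8e-12). A pair of genes of the tripartite motif family that lies within 1 Mb of each other on chromosome 7 followed, and both were dim in DBA/2J. Trim30d was at 6.56 to 7.91 (median 7.56) against 3.95 to 4.62 (median 4.28), and Trim12a at 6.27 to 7.57 (median 7.15) against 3.92 to 4.52 (median 4.04). The differences were 3.09 ± 0.18 for Trim30d and 3.00 ± 0.15 for Trim12a. Cdsn, which encodes the adhesion protein corneodesmosin of cornified epithelia and lies near the MHC on chromosome 17, was at 9.90 to 10.60 (median 10.39) against 7.31 to 8.06 (median 7.57), a difference of 2.75 ± 0.11. Pttg1 (securin, which holds back separase until anaphase) had the least spread of these genes, 8.69 to 9.02 (median 8.86) against 6.51 to 6.92 (median 6.7), a difference of 2.14 ± 0.06 (adjusted p = 2.7e-13). Bub1b, another mitotic gene, was higher in C57BL/6J by 0.57. But of 19 cell cycle genes only 2 were called in each direction, next to 8.55% and 9.14% of all genes, with a median difference of 0.03. Without replicates 3 and 4 the counts were 2 higher in C57BL/6J and 0 in DBA/2J by limma.

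**Figure D1:**
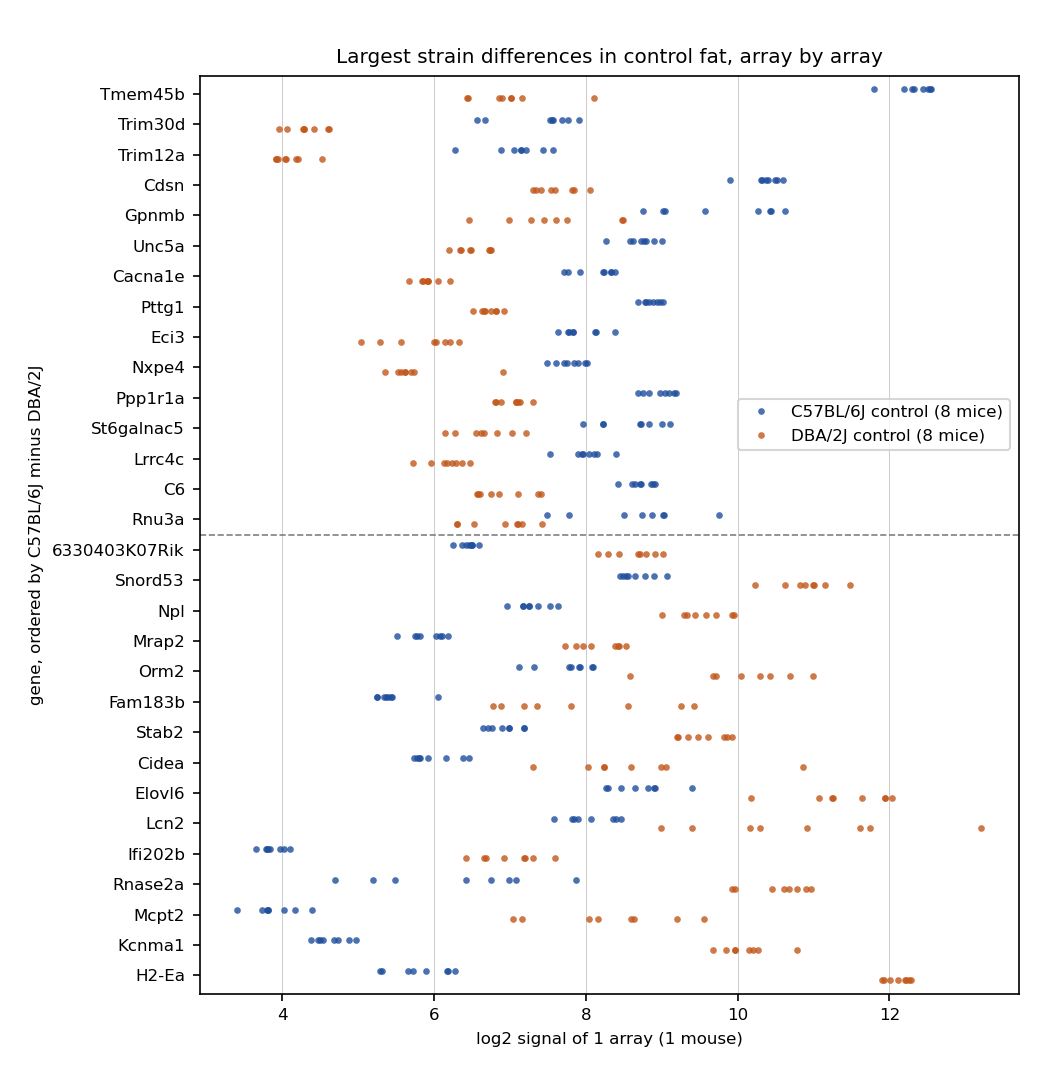
Log2 signal of each of the 16 control arrays (points, 8 per strain) for the 15 genes with the largest difference in each direction among called genes without overlap, ordered from Tmem45b to H2-Ea, with a dashed line between the directions. By the way they were chosen, no C57BL/6J point overlaps a DBA/2J point, and the spread within a strain is small for Pttg1 and wide for Lcn2 and Rnase2a.

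Some receptors and channels, best known from nerve cells, were among the genes with the largest differences. Unc5a, a receptor for the guidance factor netrin, was at 8.27 to 9.0 (median 8.75) in C57BL/6J and 6.20 to 6.75 (median 6.48) in DBA/2J, a difference of 2.20 ± 0.10. Cacna1e, a voltage-gated calcium channel subunit, was at 7.72 to 8.38 (median 8.23) against 5.67 to 6.21 (median 5.91), at 2.19 ± 0.11. Lrrc4c, a ligand for netrin-G, was at 7.53 to 8.39 (median 8.01) against 5.72 to 6.47 (median 6.21), at 1.84 ± 0.11. As for all 30 genes of this kind, the lack of overlap was part of how they were chosen. Genes of Schwann cells and nerve did not go with them, with 0 of 5 called (limma) and a median of -0.01. Ppp1r1a, an inhibitor of protein phosphatase 1 that acts downstream of cyclic AMP, was at 8.69 to 9.19 (median 9.01) against 6.80 to 7.30 (median 7.08), at 1.94 ± 0.09. In the other direction Mrap2, an accessory protein of melanocortin receptors, was at 5.51 to 6.19 (median 5.92) in C57BL/6J and 7.73 to 8.54 (median 8.23) in DBA/2J, at -2.27 ± 0.13. Stab2, a scavenger receptor for hyaluronan, was at 6.64 to 7.18 (median 6.94) against 9.20 to 9.92 (median 9.55), at -2.64 ± 0.12. Npl, which breaks down sialic acid and lies within 1 Mb of Cacna1e on chromosome 1, was at 6.96 to 7.63 (median 7.25) against 9.0 to 9.96 (median 9.51), at -2.24 ± 0.13. Npl and Cacna1e thus differed in opposite directions from neighbouring positions.

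The remaining genes with the largest differences were of mixed kinds. Eci3, an enoyl-CoA isomerase, was higher in C57BL/6J by 2.11 ± 0.17, Nxpe4 by 2.03 ± 0.17, St6galnac5 (a sialyltransferase) by 1.94 ± 0.18 and Rnu3a (a U3 small nucleolar RNA) by 1.79 ± 0.27. Fam183b at -2.46 ± 0.35, Snord53 (a C/D box small nucleolar RNA) at -2.22 ± 0.14 and 6330403K07Rik at -2.18 ± 0.11 were higher in DBA/2J. The highest Fam183b values, 9.43, 9.26 and 8.55, were those of DBA/2J replicates 4, 8 and 3. For Nxpe4 DBA/2J replicate 3 reached 6.91 while the strain's median was 5.62, and without replicates 3 and 4 the difference was 2.19. All 30 of these genes kept their sign without replicates 3 and 4, and for H2-Ea, Kcnma1 and Tmem45b the values were -6.33, -5.53 and 5.33.

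Lcn2 (lipocalin 2, an iron-chelator binding protein of the acute phase) was the most spread of the large differences. It was at 7.58 to 8.47 (median 7.98) in C57BL/6J and at 9.0 to 13.21 (median 10.61) in DBA/2J, at -2.74 ± 0.45 (adjusted p = 4.4e-04). The highest DBA/2J values, 13.21 and 11.75, were those of replicates 4 and 3, which carried the most epididymal RNA. Replicate 8 came next at 11.61, with an epididymal mean of only 5.645. Without replicates 3 and 4 the difference was -2.18 (adjusted p = 2.4e-04). Orm2, an acute phase plasma protein of the orosomucoid group, was at 7.11 to 8.10 (median 7.86) in C57BL/6J and 8.59 to 10.9996 (median 10.17) in DBA/2J, at -2.30 ± 0.27. Orm2 was not highest in the mice with the most epididymal RNA (9.72 in replicate 4 and 10.29 in replicate 3). Orm3 next to it was higher in DBA/2J too, at -1.46. Within 1 Mb of Orm2 on chromosome 4 lay also Alad, the heme synthesis enzyme aminolevulinate dehydratase, at -1.38 ± 0.09, and Hdhd3 at -1.07. Alad was at 10.45 to 10.77 (median 10.69) in C57BL/6J and 11.85 to 12.48 (median 11.92) in DBA/2J, and DBA/2J is known to carry extra copies of this gene.

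Genes with a known variant in either strain were read next. Of 17 measured, 3 were higher in C57BL/6J and 7 in DBA/2J, next to 8.55% and 9.14% of all genes, and 7 were not called. Without replicates 3 and 4 the counts were 2 and 7, next to 5.67% and 6.62% of all genes. Gpnmb, a glycoprotein of lipid-associated macrophages with a stop codon in DBA/2J, was at 8.76 to 10.62 (median 9.92) in C57BL/6J and 6.46 to 8.49 (median 7.53) in DBA/2J, a difference of 2.21 ± 0.33 (adjusted p = 1.8e-04). Klrd1, a killer cell lectin-like receptor that DBA/2J lacks, was dim in both strains and differed by 0.33 ± 0.09 with overlap, and it was not called without replicates 3 and 4. Ahr, the aryl hydrocarbon receptor, which has different alleles in these strains, was at 8.72 to 8.98 (median 8.88) against 8.03 to 8.41 (median 8.12), at 0.71 ± 0.06. Among the genes higher in DBA/2J, Ifi202b, an interferon-inducible gene that C57BL/6 mice hardly express, was at 3.65 to 4.11 (median 3.82) in C57BL/6J and 6.42 to 7.59 (median 7.05) in DBA/2J, at -3.12 ± 0.14. Glo1, the glyoxalase gene that is duplicated in DBA/2J, was at 8.27 to 8.70 (median 8.53) against 9.37 to 9.77 (median 9.43), at -0.98 ± 0.07, and its second probe set gave -0.96.

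Nnt, the mitochondrial transhydrogenase with a deletion in C57BL/6J, was at 8.05 to 8.43 (median 8.13) in C57BL/6J and 8.39 to 8.83 (median 8.58) in DBA/2J, a difference of only -0.44 ± 0.08. Where its probes lie relative to the deleted exons was not analysed here. Myo5a, the dilute coat colour gene, which carries a retroviral insertion in DBA/2J, was higher in DBA/2J, at -0.74 ± 0.09 and without overlap, and P2rx7, an ATP-gated channel with a coding variant between the strains, was at -0.43 ± 0.14. Hc, complement component 5, which DBA/2J lacks as a plasma protein, was low in both strains with medians of 6.02 and 5.71, and its difference of 0.59 ± 0.38 was not called (adjusted p = 0.29). Apoa2, Fscn2, Cdh23, Tyrp1, Abcc6 and Gabra2 were also not called, with differences from 0.04 to 1.09.

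Most interferon-stimulated genes were higher in C57BL/6J. Of 27 measured, 17 were called higher in C57BL/6J against 8.55% of all genes, and 1 higher in DBA/2J, which was Ifi202b. The median difference of the list was 0.39 against 0.03 over all genes, and without DBA/2J replicates 3 and 4 it was 0.32 with 14 and 1 called. The list mean was 7.64 to 8.02 in C57BL/6J and 7.30 to 7.78 in DBA/2J, so the strains overlapped in this sum. Gbp9, a guanylate-binding protein of antiviral defence, led the group at 8.17 to 8.68 (median 8.39) against 6.31 to 7.15 (median 6.85), a difference of 1.62 ± 0.11 (adjusted p = 2.5e-08). Gbp4 of the same family was at 9.33 to 10.62 (median 10.11) against 8.59 to 9.66 (median 9.25), at 0.82 ± 0.18. Rsad2 (viperin) was at 7.56 to 8.43 (median 7.96) against 7.03 to 7.51 (median 7.31), at 0.77 ± 0.12, without overlap. The immunity-related GTPase Iigp1 (0.76), Ifi27l2a (0.72), Ifi203 (0.72), Gbp3 (0.67), Oasl2 (0.56), Zbp1 (0.50), Irgm1 (0.49), Usp18 (0.48) and Mx1 (0.33) were called in the same direction. Ifit1 (0.39, adjusted p = 0.082) and Ifit3 (0.04) were not called.

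Promoter sequence of 3 members is given here because interferon acts on such genes through the interferon-stimulated response element. The sequences are the 250 bases before the RefSeq start in the C57BL/6J reference (GRCm38.p6), and no DBA/2J sequence is shown. Capitals mark matches on either strand to GAAA, then 2 bases of any kind, then GAAA again, with overlapping matches merged. Rsad2 lies at chr12:26456453-26456702 on the minus strand, Gbp3 at chr3:142559794-142560043 on the plus strand and Irgm1 at chr11:48871421-48871670 on the minus strand.
Rsad2: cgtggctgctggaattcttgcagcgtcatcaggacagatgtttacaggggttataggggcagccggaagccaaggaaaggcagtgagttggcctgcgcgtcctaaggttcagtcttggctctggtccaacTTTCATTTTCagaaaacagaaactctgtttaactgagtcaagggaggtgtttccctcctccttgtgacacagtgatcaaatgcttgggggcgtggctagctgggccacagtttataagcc
Gbp3: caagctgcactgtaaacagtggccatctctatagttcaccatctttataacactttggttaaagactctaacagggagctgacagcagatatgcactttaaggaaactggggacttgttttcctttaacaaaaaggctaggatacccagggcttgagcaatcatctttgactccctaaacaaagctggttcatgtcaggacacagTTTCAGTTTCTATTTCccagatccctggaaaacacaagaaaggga
Irgm1: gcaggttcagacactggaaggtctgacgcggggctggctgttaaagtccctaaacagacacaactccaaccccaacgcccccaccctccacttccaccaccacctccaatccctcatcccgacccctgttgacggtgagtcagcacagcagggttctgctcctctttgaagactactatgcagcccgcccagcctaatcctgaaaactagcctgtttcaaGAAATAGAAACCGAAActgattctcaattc
Rsad2 held 1 match, whose first base lay 120 bases before the start. Gbp3 and Irgm1 each held 2 overlapping matches, the nearer at 39 and 24 bases. Of 17 interferon-stimulated genes with a promoter in the RefSeq table, 10 (58.8%) held a match in any of their promoters, against 936 of 27025 genes of the table (3.46%) and, counted by promoter, 978 of 32851 (2.98%). The match did not separate called from other members, since 5 of the 8 called higher in C57BL/6J and 5 of the 8 not called held it. Ifi202b, the member higher in DBA/2J, held none. A match is a run of letters in the reference and not a measured binding site.

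Antigen presentation showed opposite directions within 1 locus. Of 10 MHC class II genes, 5 were higher in C57BL/6J and 1, H2-Ea, higher in DBA/2J, next to 8.55% and 9.14% of all genes. H2-Ab1, the beta chain of the class II A molecule, was at 11.03 to 11.89 (median 11.62) in C57BL/6J and 9.39 to 10.45 (median 9.83) in DBA/2J, a difference of 1.65 ± 0.15 (adjusted p = 4.8e-07). H2-Ob (0.58), H2-DMa (0.56), H2-Eb2 (0.54) and H2-Eb1 (0.53) were higher in C57BL/6J by smaller amounts, and H2-DMa was not called without replicates 3 and 4 (adjusted p = 0.057). H2-Aa (0.25), the invariant chain gene Cd74 (0.26) and Ciita (0.01), which drives class II transcription, were not called. The chains of the class II A molecule are highly polymorphic, and the limit set by probe sequence applies to them in particular. Of 18 genes of MHC class I presentation and the immunoproteasome, 2 were called, which is below the share of 17.7% over all genes. They were the peptide transporter subunits Tap1 (0.45 ± 0.11) and Tap2 (0.30 ± 0.08), both higher in C57BL/6J.

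Complement genes that were called were higher in C57BL/6J on control diet. Of 19 measured, 7 were higher in C57BL/6J, next to 8.55% of all genes, and 0 higher in DBA/2J by limma, with a median of 0.32. Without replicates 3 and 4 there were 6, next to 5.67% of all genes, and 0, with a median of 0.29. C6, a component of the membrane attack complex, was at 8.43 to 8.91 (median 8.72) against 6.56 to 7.41 (median 6.80), at 1.82 ± 0.13 (adjusted p = 2.7e-08). Properdin (Cfp) was at 9.77 to 10.54 (median 10.30) against 8.71 to 10.03 (median 9.33), at 0.83 ± 0.16. Cfb and C2, which lie side by side in the MHC and supply the proteases of the alternative and classical C3 convertases, both differed by 0.75 ± 0.11 without overlap. C1s1 (0.73), C5ar1 (0.66) and C4b (0.50) were the other called members. Of 20 chemokines, 3 were higher in C57BL/6J and 2 in DBA/2J, next to 8.55% and 9.14% of all genes. Without replicates 3 and 4 the chemokine counts were 2 and 2, next to 5.67% and 6.62% of all genes. The interferon-induced Cxcl10 was higher in C57BL/6J at 0.98 ± 0.16, without overlap, and the eosinophil attractant Ccl11 at 0.62 ± 0.17. Cxcl14 was higher in DBA/2J, at -0.998 ± 0.15.

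Macrophage markers gave no common shift beside these immune genes. Of 24 measured, Mertk (1.14 ± 0.11, a receptor for apoptotic cells) and Lyz1 (1.10 ± 0.21, a lysozyme) were higher in C57BL/6J and 0 higher in DBA/2J by limma, the median was 0.02, and Adgre1, a surface receptor of mature macrophages, was at -0.04. Of 15 genes of lipid-associated macrophages, Gpnmb was higher in C57BL/6J, while Trem2 (-0.81 ± 0.23, their lipid-sensing receptor), Fabp5 (-0.98 ± 0.14) and Cd63 (-0.33 ± 0.11) were higher in DBA/2J. For T cells 2 of 10 markers (Cd2 at 0.63 and Cd5 at 0.23), for natural killer cells 2 of 9 (Nkg7 at 0.49 and Klrd1), for B cells 0 of 8 and for neutrophils 0 of 9 were called by limma, next to 17.7% of all genes. Without DBA/2J replicates 3 and 4 these counts were 1, 0, 0 and 0, next to 12.3% of all genes, while the macrophage count stayed at 2 and that of lipid-associated macrophages was 1 and 2. The part of these cells in the immune differences was not tested.

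Most fatty acid synthesis genes were higher in DBA/2J. Of 19 measured genes, 14 were higher in DBA/2J against 9.14% of all genes, 0 were higher in C57BL/6J by limma and the median difference was -0.72. Without DBA/2J replicates 3 and 4 these values were 12, 0 and -0.55, and leaving out any single array gave 10 to 15 genes. The list mean was 9.78 to 10.25 in C57BL/6J and 10.16 to 11.26 in DBA/2J, where 1 DBA/2J mouse lay below the highest C57BL/6J mouse. Elovl6, which elongates palmitate to stearate, was at 8.26 to 9.41 (median 8.74) in C57BL/6J and 10.18 to 12.04 (median 11.45) in DBA/2J, a difference of -2.70 ± 0.23 (adjusted p = 4.1e-07). Acly, which splits citrate to give acetyl-CoA, was at 9.13 to 9.91 (median 9.20) against 9.78 to 11.35 (median 10.76), at -1.43 ± 0.20. Scd2, a desaturase, was at 8.80 to 10.44 (median 9.65) against 10.33 to 12.09 (median 11.35), at -1.57 ± 0.24. Acaca, the acetyl-CoA carboxylase of this pathway, differed by -1.03 ± 0.18, fatty acid synthase Fasn by -0.84 ± 0.16, the acetyl-CoA synthetase Acss2 by -0.85 ± 0.21 and the citrate carrier Slc25a1 by -0.72 ± 0.14. The desaturases Fads2 (-1.09, adjusted p = 0.048) and Fads1 (-0.69) and the carboxylase partner Mid1ip1 (-0.74) were in the same direction. Of the regulators, Mlxipl (ChREBP) was called at -0.40, while Srebf1 (-0.19, adjusted p = 0.34) and Thrsp (-0.36, adjusted p = 0.28) were not. Scd1, the main desaturase of adipose tissue, was at -0.08 (adjusted p = 0.16).

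Other lists of sugar and lipid metabolism had smaller median differences, and not all called members went in 1 direction. Of 26 genes of pyruvate dehydrogenase and the citric acid cycle, 11 were higher in DBA/2J, next to 9.14% of all genes, and 0 higher in C57BL/6J by limma. The median was -0.20. Without replicates 3 and 4 the counts were 11, next to 6.62% of all genes, and 0, with a median of -0.23. Dlat (-0.59 ± 0.11), Dld (-0.54 ± 0.13) and Pdha1 (-0.52 ± 0.11) are subunits of the pyruvate dehydrogenase complex, and Pdk4 (-0.54 ± 0.15) is a kinase that inhibits it. Of 17 glycolysis genes, 5 were higher in DBA/2J and 1 in C57BL/6J, next to 9.14% and 8.55% of all genes. The former were the fructose transporter Slc2a5 (-1.10 ± 0.23), Pkm (-0.57 ± 0.13), Pfkl (-0.51 ± 0.11), Aldoa (-0.44 ± 0.07) and Ldha, and the latter was Pfkp. Without replicates 3 and 4 the counts were 5 and 0 by limma, next to 6.62% and 5.67% of all genes. In the pentose phosphate pathway, which supplies NADPH, Tkt (-0.87 ± 0.16) and Pgd (-0.39 ± 0.10) were called among 7. For genes higher in DBA/2J the share over all genes was 9.14%, and the median of the list was -0.02. Of 10 genes of glycerol phosphate and triacylglycerol synthesis, 3 were higher in DBA/2J and 2 in C57BL/6J, next to 9.14% and 8.55% of all genes. The other 5 were not called. Gpd1 (-0.87 ± 0.16), Agpat2 (-0.55 ± 0.15) and Dgat2 (-0.38 ± 0.09) were higher in DBA/2J. Lpin1, a phosphatidate phosphatase, was higher in C57BL/6J by 0.73 ± 0.09, and Mogat1 was higher there too. Without replicates 3 and 4 the counts were again 3 and 2, next to 6.62% and 5.67% of all genes. Of 17 genes of the carnitine shuttle and beta-oxidation, 7 were higher in DBA/2J, next to 9.14% of all genes, 1 (Eci1) was higher in C57BL/6J and 9 were not called, and without replicates 3 and 4 there were 8 and 1. The largest of these differences were those of both subunits of the trifunctional protein, Hadhb (-0.70 ± 0.14) and Hadha (-0.64 ± 0.12). DBA/2J replicate 2 was the highest of its group for Hadha (12.18), and without it 7 genes of the list were higher in DBA/2J, with a median of -0.18.

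Most respiratory chain genes were not called. Of 35 genes of complex I, 9 were higher in DBA/2J and 2 in C57BL/6J, next to 9.14% and 8.55% of all genes, and 24 were not called. Without replicates 3 and 4 the counts were 7 and 1, next to 6.62% and 5.67% of all genes. The median was -0.13, and Ndufc1 at -0.42 ± 0.08 was an example. Of 33 genes of complexes III and IV and ATP synthase, 8 were higher in DBA/2J, next to 9.14% of all genes. Without replicates 3 and 4 only 3 were, next to 6.62% of all genes. Among 34 genes of the mitochondrial ribosome, Mrpl20 (-0.87 ± 0.10) and Mrpl35 (0.78 ± 0.06) differed in opposite directions. Of the 34, 7 were higher in DBA/2J and 1, Mrpl35, in C57BL/6J, next to 9.14% and 8.55% of all genes. Without replicates 3 and 4 the counts were 6 and 1, next to 6.62% and 5.67%. In the breakdown of branched-chain amino acids, Bcat1 (-0.70 ± 0.11) and Bckdhb (-0.69 ± 0.07) were higher in DBA/2J, whereas Bcat2 (0.51 ± 0.08) and Ivd (0.59 ± 0.07) were higher in C57BL/6J. The median over these 17 genes was 0.04.

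Some cholesterol synthesis genes were also higher in DBA/2J on the control diet. Of 19 measured, 9 were higher in DBA/2J, next to 9.14% of all genes, 0 were higher in C57BL/6J by limma and 10 were not called, with a median of -0.31. Without replicates 3 and 4 there were 7, next to 6.62% of all genes, with a median of -0.22. Nsdhl, a sterol dehydrogenase, was at 8.84 to 9.74 (median 9.25) in C57BL/6J and 9.75 to 10.96 (median 10.36) in DBA/2J, a difference of -1.11 ± 0.17. Fdps (farnesyl diphosphate synthase) at -0.87 ± 0.15 and Lss (lanosterol synthase) at -0.73 ± 0.12 also did not overlap, and Insig1, which retains the sterol-sensing complex in the endoplasmic reticulum, was at -0.86 ± 0.17.

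**Figure D2:**
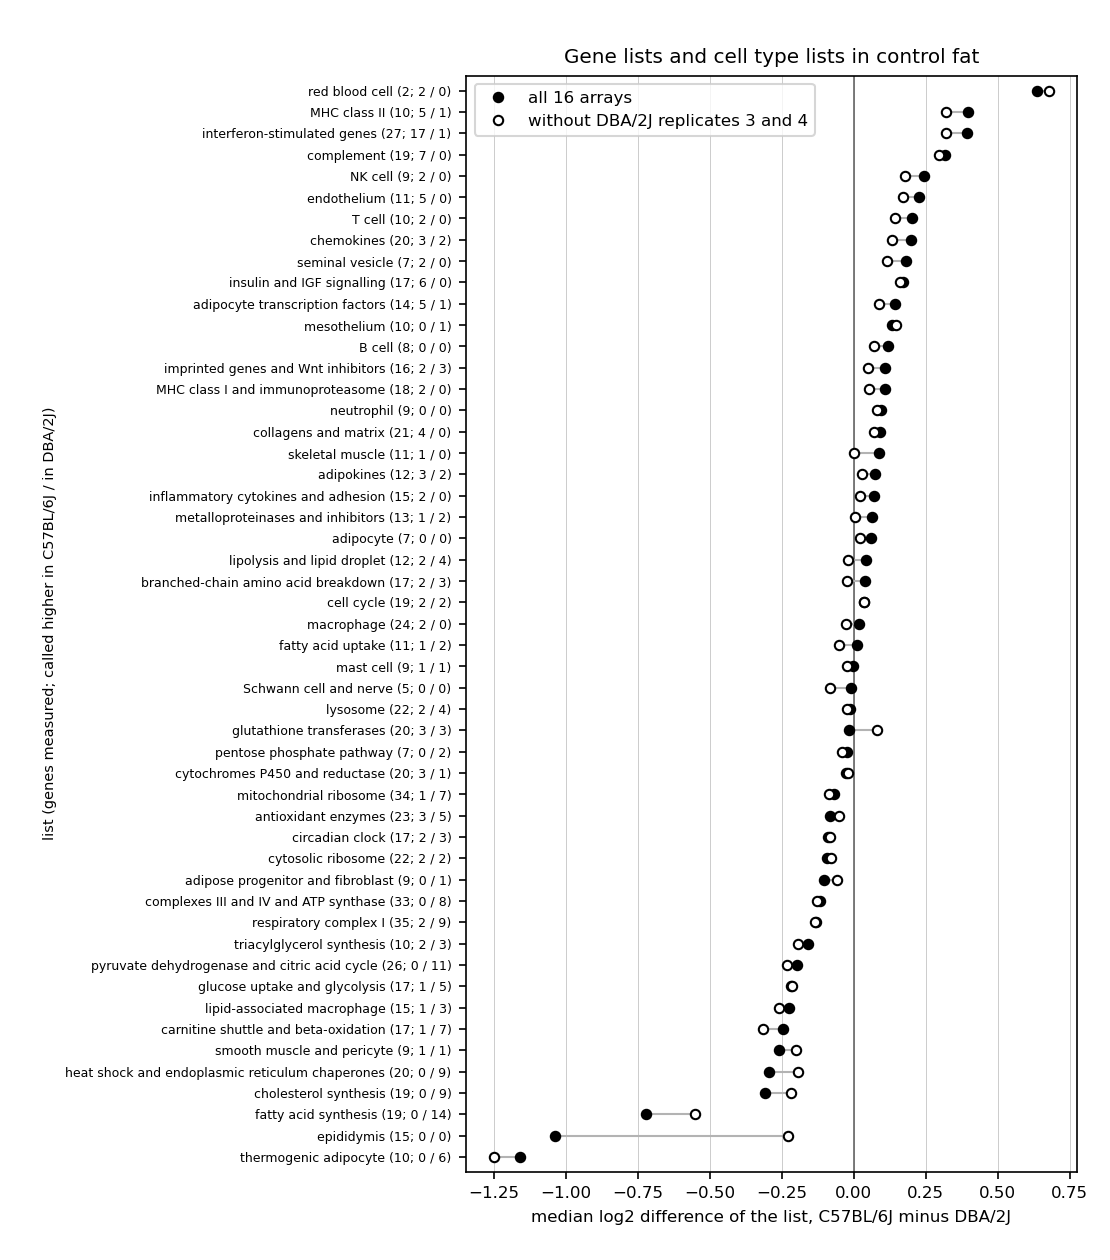
Median log2 difference (C57BL/6J minus DBA/2J) of each gene list and cell type list over all 16 control arrays (filled) and without DBA/2J replicates 3 and 4 (open), with the number of genes measured and called in each direction beside the name. The thermogenic list (-1.16 and -1.25) lies lowest with either set of arrays plotted, though not without DBA/2J replicate 2 (-0.91 against -1.04 for epididymis), and the epididymis list moves from -1.04 to -0.23 when the arrays are left out.

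Thermogenic genes followed. Of 10 measured genes, 6 were higher in DBA/2J, next to 9.14% of all genes, and 0 in C57BL/6J by limma. The median was -1.16 with all arrays and -1.25 without replicates 3 and 4, where 5 were called, next to 6.62% of all genes. The list mean was 6.59 to 6.92 in C57BL/6J and 7.27 to 9.52 in DBA/2J without overlap. Cidea, a lipid droplet protein of brown fat, was at 5.74 to 6.46 (median 5.87) in C57BL/6J and 7.31 to 10.87 (median 8.42) in DBA/2J, a difference of -2.66 ± 0.35 (adjusted p = 5.1e-05). Ucp1, the uncoupling protein of brown and beige adipocytes, was at 5.32 to 5.85 (median 5.62) against 6.15 to 11.62 (median 7.19), at -2.06 ± 0.57 (adjusted p = 0.019). Cox8b, a cytochrome oxidase subunit of brown fat and muscle, was at 7.86 to 8.80 (median 8.59) against 9.35 to 11.96 (median 10.0039), at -1.78 ± 0.28. Elovl3, an elongase that rises with cold exposure in brown fat and is counted under fatty acid synthesis too, was at -1.73 ± 0.52, Otop1 at -1.38 and the coactivator Ppargc1a at -0.78. Prdm16 (-0.18), Dio2 (0.12) and Cox7a1 (-0.94, adjusted p = 0.088) were not called.

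DBA/2J replicate 2 supplied the highest values of this list, with a list mean of 9.52 where the next DBA/2J mouse had 8.16. Without it 7 of the 10 genes were called, the median was -0.91, and Ucp1 (-1.49, adjusted p = 0.0015), Cidea (-2.34) and Cox8b (-1.53) were still called. Elovl3 was called without replicate 2 (-1.31) but not without replicates 3 and 4 (-1.71, adjusted p = 0.052). Of 11 skeletal muscle markers, 1 was called, and that gene, Tnnt3, was higher in C57BL/6J at 0.24. Ppara, a nuclear receptor that drives oxidation genes, was also higher in DBA/2J, at -0.95 ± 0.25, as were the droplet proteins Plin5 (-0.63 ± 0.10) and Plin2 (-0.36 ± 0.11). Of 7 general adipocyte markers 0 were called by limma, with a median of 0.06.

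**Figure D3:**
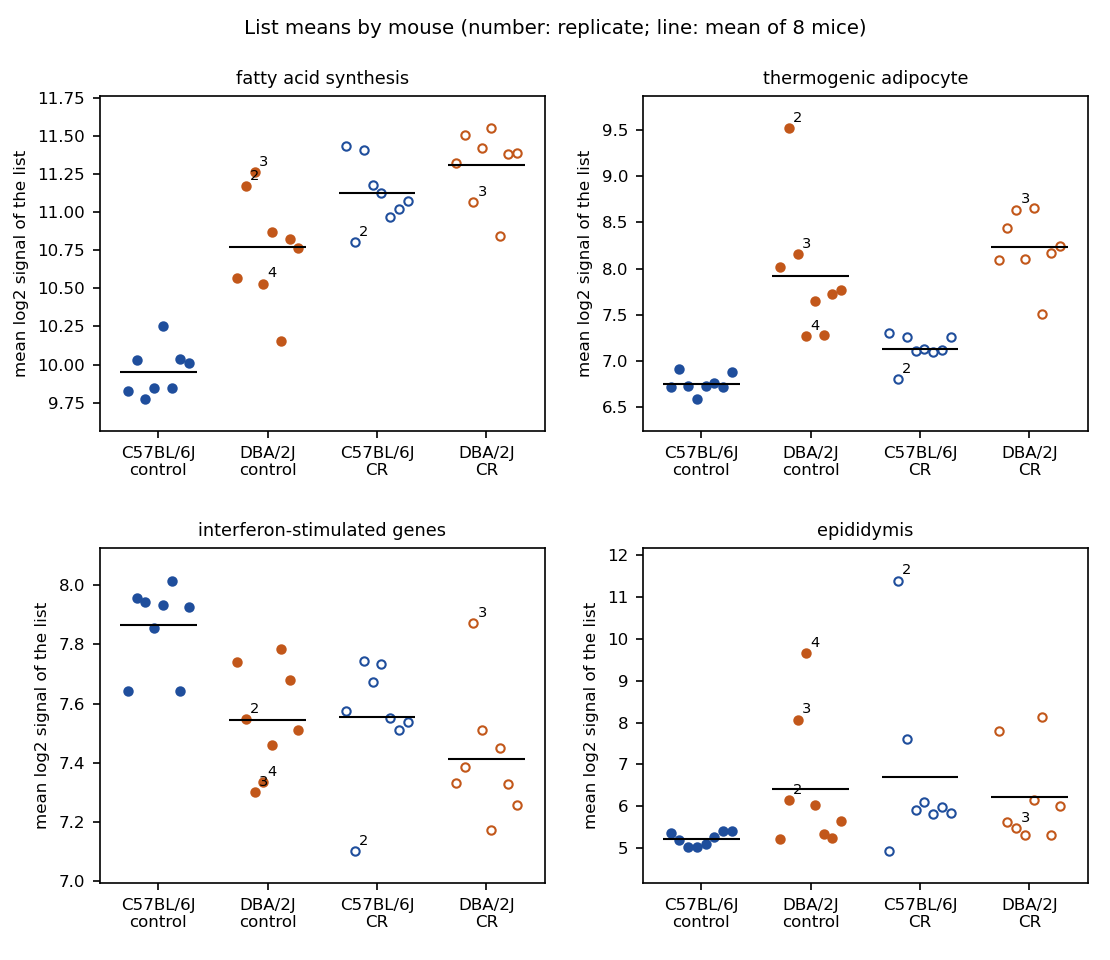
Mean log2 signal over the members of 4 lists in each mouse (points) of the C57BL/6J and DBA/2J control and CR groups, with the group mean as a line and the mice that stand apart numbered by replicate. Thermogenic means of DBA/2J controls (7.27 to 9.52) lie above all C57BL/6J controls (6.59 to 6.92), and fatty acid synthesis means of both strains lie closer together on CR (10.80 to 11.43 and 10.84 to 11.55).

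Insulin signalling, adipokine and adipocyte regulatory genes differed by smaller amounts. Of 17 insulin and IGF signalling genes, 6 were higher in C57BL/6J, next to 8.55% of all genes, and 0 in DBA/2J by limma. Without replicates 3 and 4 there were 3 and 1, next to 5.67% and 6.62% of all genes. Igfbp4, an IGF-binding protein, was at 11.55 to 11.74 (median 11.63) against 10.33 to 11.06 (median 10.87), at 0.80 ± 0.09, and Irs2, an insulin receptor substrate, was at 0.46 ± 0.13. Among 12 adipokines, Agt (angiotensinogen, 0.91 ± 0.13), Rbp4 (retinol-binding protein, 0.76 ± 0.07) and Retn (resistin, 0.28) were higher in C57BL/6J, and Rarres2 (chemerin, -0.53 ± 0.08) and Lcn2 higher in DBA/2J. These counts of 3 and 2 stood next to 8.55% and 9.14% of all genes. Without replicates 3 and 4 the adipokine counts were again 3 and 2, next to 5.67% and 6.62%. Leptin (Lep, 0.10) and adiponectin (Adipoq, 0.14) were not called. Of 14 adipocyte transcription factors, 5 were higher in C57BL/6J and 1, Ppara, in DBA/2J, next to 8.55% and 9.14% of all genes. Cebpd (0.43), Cebpa (0.41) and Rxra (0.36) were among the former, and Pparg (0.15, adjusted p = 0.17) was not called. Without replicates 3 and 4 the counts were 4 and 1, next to 5.67% and 6.62%. Of 17 clock genes, 2 were higher in C57BL/6J and 3 in DBA/2J, next to 8.55% and 9.14% of all genes. The former were Arntl (0.75) and Nr1d1 (0.57), and Bhlhe40 (-0.74) and Bhlhe41 (-0.59) were among the latter. Neither Arntl nor Nr1d1 was called without replicates 3 and 4, where the counts were 0 and 3 by limma.

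Secreted and matrix genes included Sfrp1, a Wnt inhibitor, at 7.01 to 8.11 (median 7.42) in C57BL/6J and 8.20 to 9.89 (median 9.08) in DBA/2J, a difference of -1.61 ± 0.24. The imprinted genes Plagl1 (-0.76 ± 0.12) and Peg3 (0.75 ± 0.18) differed in opposite directions. Mmp9 (1.13 ± 0.14) was higher in C57BL/6J, and Mmp2 (-0.61 ± 0.12) and the inhibitor Timp1 (-0.46 ± 0.14) higher in DBA/2J. Of 21 collagen and matrix genes, 4 were higher in C57BL/6J (Thbs1 at 1.05 ± 0.27, Col15a1, Col4a1 and Col4a2), next to 8.55% of all genes. The collagens of basement membrane differed by 0.36 to 0.38. Endothelial markers moved in that direction too, with 5 of 11 higher in C57BL/6J, next to 8.55% of all genes. Among them were Vwf (0.53), Cldn5 (0.44), Eng (0.43) and Flt1 (0.30). Only 2 were higher in C57BL/6J without replicates 3 and 4, next to 5.67% of all genes. Red blood cell genes were represented by Alas2 (0.80) and Slc4a1 (0.47), both higher in C57BL/6J. The part of blood and vessel content in the matrix differences was not tested.

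Detoxifying enzymes and chaperones were mixed. Of 20 glutathione transferases, Gsta3 (1.49 ± 0.21) led those higher in C57BL/6J and Gsta4 (-1.38 ± 0.11) those higher in DBA/2J, both without overlap. Gstm7 (-1.87 ± 0.56) and Gstm5 (-0.95 ± 0.31) were called with all arrays, but their highest DBA/2J values were 12.35 and 11.14, and without replicates 3 and 4 neither was called (adjusted p = 0.077 and 0.15). The cytochrome P450 genes Cyp4f18 (1.71 ± 0.11), Cyp2e1 (1.29 ± 0.24) and Cyp2j9 (0.61 ± 0.07) were higher in C57BL/6J and Cyp2u1 (-0.61 ± 0.09) higher in DBA/2J. Of 23 antioxidant genes, 5 were higher in DBA/2J and 3 in C57BL/6J, next to 9.14% and 8.55% of all genes. Both subunits of glutamate-cysteine ligase, Gclm (-0.74 ± 0.12) and Gclc (-0.33 ± 0.10), and glutathione reductase Gsr (-0.53 ± 0.07) were among the former. Without replicates 3 and 4 the counts were 3 and 2, next to 6.62% and 5.67% of all genes. Of 20 heat shock and endoplasmic reticulum chaperones, 9 were higher in DBA/2J, next to 9.14% of all genes, and 0 in C57BL/6J by limma, with a median of -0.29. Without replicates 3 and 4, 6 were higher in DBA/2J, next to 6.62% of all genes. Hspe1, the mitochondrial co-chaperonin (-0.69 ± 0.12), Hsph1 (-0.69 ± 0.19), Hspa5 (-0.47 ± 0.13) and Dnaja1 (-0.45 ± 0.12) were examples. Krt8, an epithelial keratin counted with mesothelium, was at -1.25 ± 0.42 with all arrays and not called without replicates 3 and 4 (-0.73, adjusted p = 0.16).

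The 30 genes with the largest differences were then read in the control groups of the other strains, as a description with no test. For 9 of the 30, the means of all 4 other inbred strains were nearer to C57BL/6J than to DBA/2J: Tmem45b, Gpnmb, Ppp1r1a, 6330403K07Rik, Npl, Mrap2, Stab2, Mcpt2 and Kcnma1. Some were nearer only by a little, as Ppp1r1a in C3H/HeJ with 8.11 where the midpoint of the pair was 8.00, and Gpnmb means of 11.54 in C3H/HeJ and 11.75 in CBA/J lay above both strains. Tmem45b means were 12.10 to 12.75 in those strains, and Mcpt2 means were 3.76 to 3.95. For 7 genes all 4 were nearer to DBA/2J: Trim30d, Trim12a, Cdsn, Pttg1, Nxpe4, C6 and Cidea, the last with a BALB/cJ mean of 7.38 where the midpoint was 7.34. The mean of B6C3F1/J, the hybrid of C57BL/6J and C3H/HeJ, lay between those of its parents for each of the 7, for example at 6.81 for Trim30d, where C3H/HeJ had 4.78. For H2-Ea, 129S1/SvImJ, which shares the b haplotype, had a mean of 5.81, and BALB/cJ, C3H/HeJ and CBA/J had 11.48 to 11.89.

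**Figure D4:**
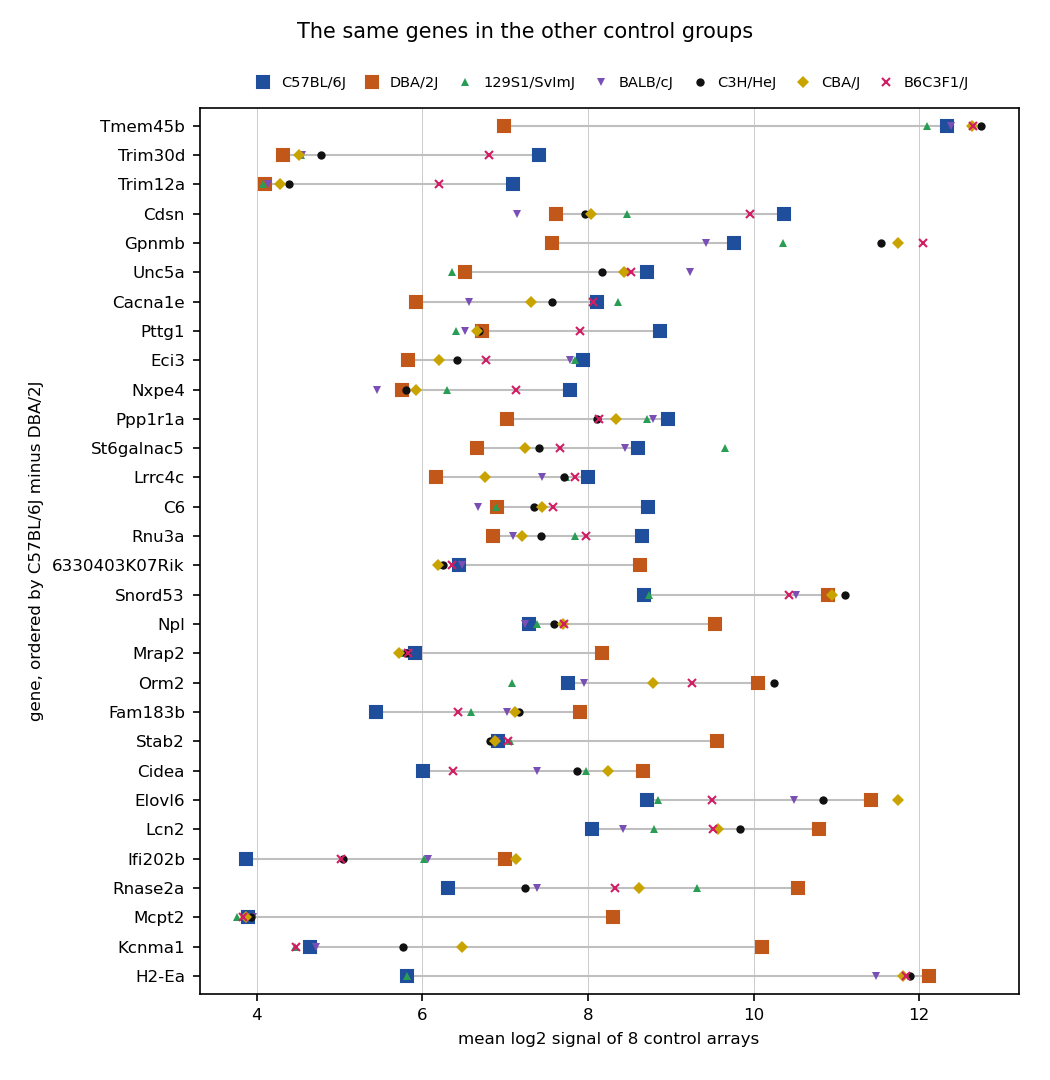
Mean log2 signal of 8 control arrays per strain for the 30 genes with the largest differences, with squares for C57BL/6J and DBA/2J joined by a line and smaller symbols for the other 5 groups. For Mcpt2, Stab2, Mrap2 and 6330403K07Rik the other groups cluster on the C57BL/6J square, and for Trim30d, Trim12a and Pttg1 the other inbred strains cluster on the DBA/2J square.

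Genes close to these 30 on the chromosome were counted too, without the 30 themselves. The counts over all 30 therefore leave out the pairs Trim30d with Trim12a and Npl with Cacna1e, which lie within 1 Mb of each other. Within 1 Mb of the 30, 893 different neighbours were tested and 167 (18.7%) were called, next to 17.7% of all genes, and 10 (1.12%) differed by at least 1, next to 1.06% of all genes. H2-Ea had the most called neighbours, 32 of 105, of which 8 were higher in DBA/2J as H2-Ea was, and H2-Ab1 and H2-K2 (1.30) were higher in C57BL/6J. The share of called genes by chromosome ran from 14.2% on X to 20.9% on chromosome 1.

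In the CR mice, which were different animals on unequal rations, 1940 genes (9.73%) differed between the strains, 1093 (5.48%) higher in C57BL/6J and 847 (4.25%) higher in DBA/2J. Of the genes called on control diet, 1038 were called on CR with the same sign, which is 29.4% of the control calls and 53.5% of the CR calls, and 11 were called with the opposite sign. Of the 211 with a difference of at least 1, 137 were called again, and of the 30 largest 28 were. Among those were H2-Ea (-6.00), Kcnma1 (-5.15), Mcpt2 (-4.55), Tmem45b (5.51) and Trim12a (3.01), each close to its value on control diet. Lcn2 (-1.16, adjusted p = 0.29) and Elovl6 (-0.21, adjusted p = 0.50) were the exceptions.

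2 CR arrays stood apart, C57BL/6J replicate 2, with an epididymal mean of 11.39 and an adipocyte mean of 11.36 where its group had at least 12.45, and DBA/2J replicate 3, with a T cell mean of 8.65 and a B cell mean of 9.17 where no other of these CR mice exceeded 6.7. Other CR mice also had a raised epididymal mean, 7.62 in C57BL/6J replicate 3 and 7.80 and 8.13 in DBA/2J replicates 1 and 6, and these were kept. Without C57BL/6J replicate 2 and DBA/2J replicate 3, 4376 genes (21.9%) were called on CR, 2365 (11.9%) higher in C57BL/6J and 2011 (10.1%) higher in DBA/2J. These shared 1867 genes of the same sign with the control calls (52.9% of the control calls and 42.7% of these CR calls), with 182 of the 211 and 29 of the 30.

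The gene groups were also read on CR. Of all genes, 5.48% were called higher in C57BL/6J on CR and 4.25% higher in DBA/2J. Without the 2 CR arrays named above these shares were 11.9% and 10.1%. With all CR arrays the thermogenic list had 5 genes higher in DBA/2J with a median of -0.80, and Ucp1 (-2.48), Elovl3 (-2.74) and Cidea (-1.95) were called. Without the 2 CR arrays 6 were higher in DBA/2J with a median of -0.50. Ucp1, Elovl3 and Cidea were then at -2.13, -2.66 and -1.69. Interferon-stimulated genes had 6 and 1 called with a median of 0.13, and 14 and 1 with a median of 0.34 without the 2 CR arrays. MHC class II genes had 1 in each direction, and 5 and 1 without those arrays. The fatty acid synthesis list had 1 gene higher in DBA/2J, Elovl3, and 0 in C57BL/6J by limma, with a median of -0.18, and without the 2 arrays 4 were higher in DBA/2J and 3 in C57BL/6J. Cholesterol synthesis had 5 genes higher in C57BL/6J and 1 in DBA/2J, with a median of 0.22, and without the 2 arrays 7 and 3 with a median of 0.07.

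The strain difference itself differed between diets for 146 genes (0.732%), of which 91 were among the control calls. Values for this are the strain difference on control diet minus that on CR. Elovl6 differed by -2.70 on control diet and -0.21 on CR, and the difference between these, -2.49, was called (adjusted p = 1.8e-05). Scd2 (-1.51, adjusted p = 0.018) and Acss2 were called from the same list, but Scd2 was not when all 4 arrays named above were left out (adjusted p = 0.058). In cholesterol synthesis 8 genes were called, Cyp51, Fdft1, Fdps, Idi1, Insig1, Lss, Nsdhl and Pmvk. Insig1 differed by -0.86 on control diet and 0.61 on CR, which is -1.47 as control minus CR (adjusted p = 0.0015). Nsdhl differed by -1.11 and -0.02, which is -1.09 as control minus CR (adjusted p = 0.012). Cacna1e had a smaller strain difference on CR (0.61, control minus CR 1.59, adjusted p = 5.7e-08) and Unc5a a larger one (3.37, control minus CR -1.17, adjusted p = 7.3e-04). The number of genes called for this change depended on the arrays, with 61 without DBA/2J control replicates 3 and 4 and 318 without the 2 CR arrays.

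**Figure D5:**
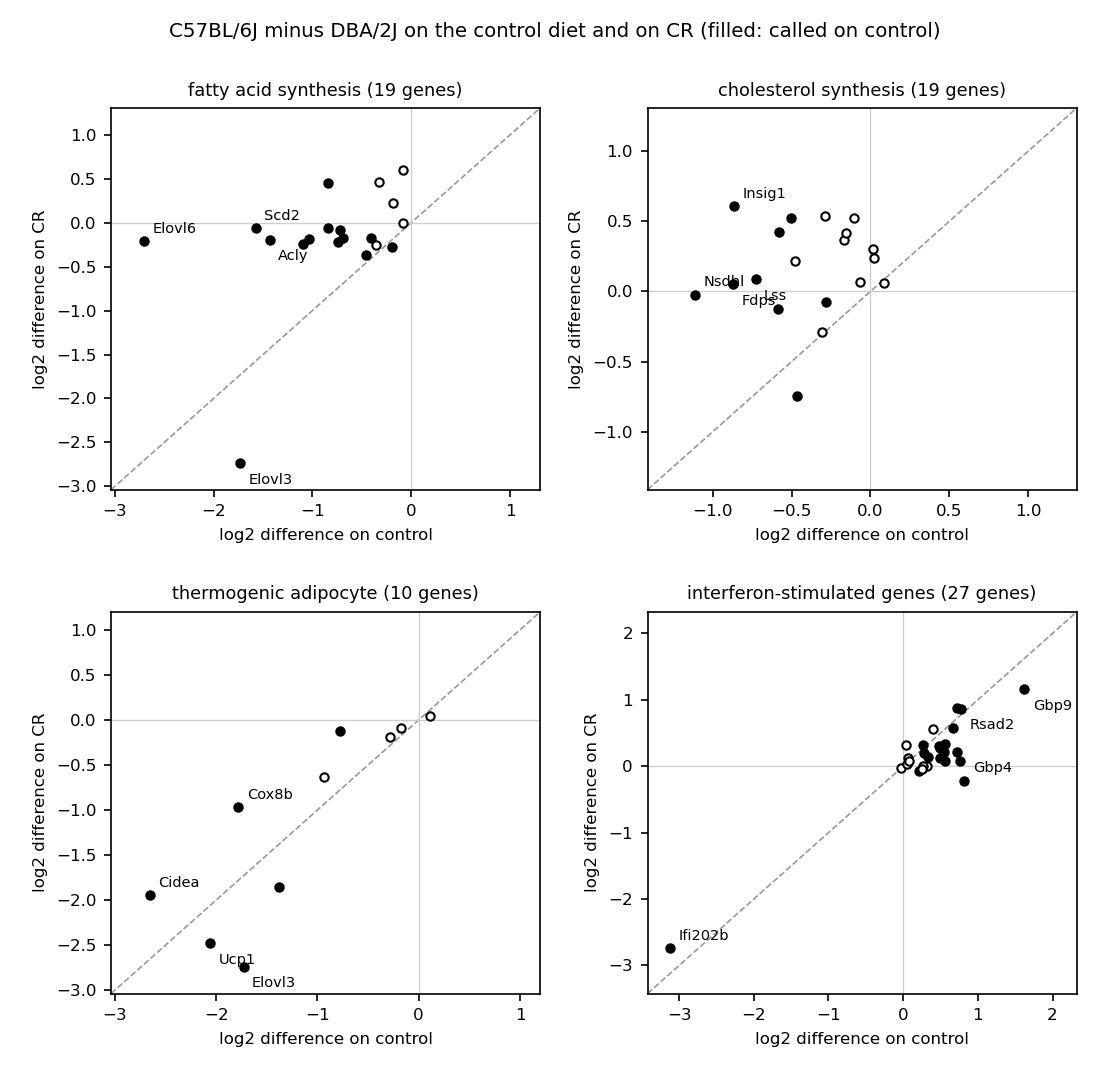
Log2 difference of each gene (C57BL/6J minus DBA/2J) on control diet (horizontal) and on CR (vertical) for 4 lists, filled where called on control diet, with the line of equal difference dashed. Elovl6, Scd2 and Acly lie near 0 on CR (-0.21, -0.06 and -0.19), while Ucp1, Cidea and Elovl3 of the thermogenic list stay far below 0 on both diets.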

How the data were processed

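Total RNA of epididymal WAT was labelled and hybridised to the Mouse Gene 1.0 ST array of Affymetrix, and every array holds a single animal. The deposited values are log2 signals that the authors made in Affymetrix Expression Console by RMA (background correction, quantile normalization and summary per probe set). They hold no counts, and precision depends on how many arrays there are. Of 35556 probe sets, 21789 name 1 gene, 1621 name several and were left out, and 12146 are not listed in the annotation table used. The brightest probe set over the 16 control arrays stood for a gene, which gave 19938 genes.

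Strains were compared with limma 3.58.1 (lmFit and eBayes, R 4.3.3) on 8 against 8 control arrays, with Benjamini-Hochberg adjustment over all genes and a threshold of 0.05, which the report's adjusted p-values refer to. The same fit was run on CR arrays, and the change of the strain difference with diet on all 32. The scripts were tested on simulated data. Named genes are the 15 largest differences in each direction among called genes without overlap, up to 4 called genes of largest difference per list, and every measured gene with a known variant. Further list members and neighbours were named with their values in view. The 36 gene lists and 16 cell type lists, with 793 genes measured, were chosen with earlier results of these data known. Promoters are from RefSeq (GRCm38.p6). Alternatives changed the samples, scaling, filter, probe set rule and model.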

Additional observations from a re-analysis of the deposited data

Results flagged for a closer look

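Some mice lay far from the other 7 of their group for a named gene by Dixon's test, which chance alone passes in a small share of groups. With 185 named genes, some of the mice below can be such chance cases. DBA/2J replicate 2 was such a mouse for 12 genes, Acaa2 (12.12), Apoa2 (10.71), Cxcl14 (8.96), Dld (10.24), Etfdh (10.97), Hadha (12.18), Hc (7.30), Pfkl (9.92), Plin5 (8.85), Tmem45b (8.11), Ucp1 (11.62) and Uqcrh (10.93). DBA/2J replicate 3 was for Igfbp4 (10.33) and Nxpe4 (6.91), replicate 4 for Ivd (9.28) and Rplp0 (12.26), replicate 7 for Ahr (8.41) and replicate 8 for Bub1b (5.59), Cdk1 (7.12) and Timp1 (6.33). Among C57BL/6J mice, replicate 1 stood apart for Agt (12.07), Cdsn (9.90), Col15a1 (9.47), Ctsl (10.58) and Rxra (9.59), and replicate 2 for Elovl3 (7.37), Gstm7 (8.68) and Ppara (8.33). Replicate 5 did for Acly (9.91), replicate 7 for Nnt (8.43) and replicate 8 for Fam183b (6.06) and Il18 (6.41).

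The strain difference on control diet differed from that on CR for 11 of the named genes, in an interaction model (limma). As control minus CR, the values were 1.59 for Cacna1e, -2.49 for Elovl6, -1.47 for Insig1, -1.17 for Unc5a, -1.09 for Nsdhl and -1.51 for Scd2. They were 1.75 for Thbs1, -0.81 for Lss, -0.92 for Fdps, -0.55 for Gsta4 and -0.38 for Mrpl48. Without DBA/2J control replicates 3 and 4, C57BL/6J CR replicate 2 and DBA/2J CR replicate 3, the adjusted p was 0.058 for Scd2, 0.060 for Thbs1, 0.087 for Lss, 0.10 for Fdps and 0.063 for Mrpl48 in the same model.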

How the results depend on the processing

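The count of 3528 genes on control diet lay between 2846 and 4407 when each array was left out in turn, with 1375 to 2239 higher in C57BL/6J and 1448 to 2168 higher in DBA/2J. Without DBA/2J replicates 3 and 4, which was part of the design, 1130 genes were higher in C57BL/6J. Quantile normalization gave 1887 and 1735 genes higher in C57BL/6J and DBA/2J, centring each array 1410 and 1989, a filter on dim genes 1485 and 1979, and a model of all 14 groups 2198 and 2606. The methods' t-test called 3427 genes at their threshold, where limma called 3677 at the same unadjusted p, and 3155 after Benjamini-Hochberg adjustment. The count on CR was 3885 in the model of 14 groups, 1251 with a replicate block and 4376 without C57BL/6J CR replicate 2 and DBA/2J CR replicate 3, an alternative chosen after seeing the data. The count for the change with diet was 61 without DBA/2J control replicates 3 and 4, 318 without those CR arrays and 250 without all 4. With the replicate block the control count was 2987 (1446 and 1541). Deviations of same-numbered arrays from their group means had correlations of -0.19 to 0.54. Of the 8 DBA/2J arrays, 1 was best matched by the C57BL/6J array of its own number. The main fit has no replicate block, and whether same-numbered arrays share a batch was not tested. None of the 178 named genes that were called changed sign under any of these alternatives for the control comparison. The signs of the named genes that were not called were not checked. Over all named genes, calls were lost in 318 and gained in 3 pairs of gene and setting. The cause of the moved counts was not tested.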
